A study of Mus musculus with 12 samples.

Results

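Translation initiation and elongation factors were followed in interscapular brown adipose tissue, the heat-producing fat of the upper back of the mouse. The family comprised the protein-coding genes of GENCODE M21 whose symbol begins with Eif1 to Eif6 or with Eef, without the Eif2ak kinases. This gave 65 genes of 54356 with a transcript in the files, of which 21815 were protein-coding, while 10 processed pseudogenes and 1 lincRNA with matching symbols stayed outside. The choice of genes used symbols only, but the family was proposed with the outcome of cold against ctrl known, so its counts below are descriptions. Poly(A) RNA came from 12 male wild-type C57BL/6N mice aged 20 weeks, 6 labelled cold and 6 labelled ctrl, with 1 library per animal. Cold animals spent 24 h alone at 4 °C, and ctrl animals carry no separate account of their housing, since the same treatment text is attached to every sample and the colony text gives 22 to 24 °C. The series text counts 3 animals where the files hold 6 a group, and the extraction text names eWAT where every tissue label says brown adipose tissue. Libraries held 15984872 to 31423954 estimated reads, with cold 4 the deepest and ctrl 14 the shallowest. All 11 brown adipocyte markers were present, with a summed level of 25375 to 34603 CPM (reads scaled to a common library size by TMM) in cold libraries and 20182 to 28294 CPM in ctrl libraries.

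Initiation factors bring the ribosome to the start codon and elongation factors then move it along the message. eIF2 carries the initiator tRNA as a GTP-bound ternary complex and is recharged by the exchange factor eIF2B, whose inhibition by phosphorylated eIF2α is the core of the integrated stress response. eIF4E binds the cap and joins eIF4G and eIF4A as eIF4F, unless a 4E-binding protein holds it, a hold that mTORC1 releases by phosphorylation. eEF1A delivers aminoacyl-tRNA, eEF1B recharges it, and eEF2 moves the ribosome by 1 codon until its kinase eEF2K stops it. These switches act largely on proteins, and the libraries measure RNA only.

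Promoters are shown for 3 eIF2B subunits that were all higher in cold, for the cap-binding protein and for the eEF2 kinase, all chosen after their values were seen. RefSeq's promoter table (GRCm38) held 49 of the 65 genes. Each sequence runs 5′ to 3′ from 250 bases before the first listed start to 20 bases after it, and capitals mark matches on either strand to 11 short motifs. chr12:85219231-85219500 (plus strand) is Eif2b2, chr5:31193120-31193389 (minus strand) is Eif2b4, chr16:20498567-20498836 (plus strand) is Eif2b5, chr3:138525941-138526210 (plus strand) is Eif4e and chr7:120842581-120842850 (plus strand) is Eef2k. Eif4e has 2 starts in the table and Eef2k has 3.
Eif2b2: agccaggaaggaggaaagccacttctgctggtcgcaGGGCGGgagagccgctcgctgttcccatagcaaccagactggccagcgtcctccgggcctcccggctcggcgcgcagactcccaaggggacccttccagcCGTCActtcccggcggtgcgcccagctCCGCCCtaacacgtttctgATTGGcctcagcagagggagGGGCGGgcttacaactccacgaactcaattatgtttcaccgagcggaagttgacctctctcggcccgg
Eif2b4: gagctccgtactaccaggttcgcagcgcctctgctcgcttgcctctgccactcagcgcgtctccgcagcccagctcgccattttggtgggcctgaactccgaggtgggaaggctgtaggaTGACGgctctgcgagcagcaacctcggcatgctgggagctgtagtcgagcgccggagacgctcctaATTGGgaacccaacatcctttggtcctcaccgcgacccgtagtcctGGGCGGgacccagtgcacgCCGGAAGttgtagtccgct
Eif2b5: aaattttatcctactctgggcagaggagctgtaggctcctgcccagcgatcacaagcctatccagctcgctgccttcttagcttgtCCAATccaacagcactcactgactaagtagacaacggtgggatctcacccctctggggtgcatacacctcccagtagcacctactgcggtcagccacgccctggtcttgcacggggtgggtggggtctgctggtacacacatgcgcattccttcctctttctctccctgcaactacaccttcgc
Eif4e: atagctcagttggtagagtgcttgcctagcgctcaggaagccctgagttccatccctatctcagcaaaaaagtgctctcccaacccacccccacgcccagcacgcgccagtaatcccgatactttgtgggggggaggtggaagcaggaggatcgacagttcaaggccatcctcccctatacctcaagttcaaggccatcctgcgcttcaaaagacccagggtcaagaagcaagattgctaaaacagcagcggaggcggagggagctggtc
Eef2k: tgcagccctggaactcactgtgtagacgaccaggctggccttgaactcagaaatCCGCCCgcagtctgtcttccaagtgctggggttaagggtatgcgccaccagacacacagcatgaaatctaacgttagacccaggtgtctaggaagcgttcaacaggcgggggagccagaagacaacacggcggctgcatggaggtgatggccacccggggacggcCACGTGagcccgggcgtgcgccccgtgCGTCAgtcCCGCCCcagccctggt

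The Eif2b2 and Eif2b4 windows each held the CRE half-site letters TGACG, the CCAAT box and the GC box GGGCGG. Eif2b4 also held the ETS core CCGGAAG just after its start, Eif2b5 held a single CCAAT box, and Eef2k held the E-box CACGTG beside TGACG and GC boxes. None of the 11 motifs was in this Eif4e window. Over all listed starts and the full 300 bases Eif4e held the E-box, the CRE half-site, the CCAAT box and the YY1 motif. Eif2b2 also held the ETS core, and Eef2k also held the CARE core. Counted in that way, CCGGAAG was present in 32.7% of the 49 factor genes, 19.9% of the tested genes in the table and 9.93% of all its genes. CACGTG was present in 26.5% of the factor genes, 11.7% of tested genes and 8.09% of all genes, and TGACG in 49.0%, 34.9% and 23.0%. Among the 16 factor genes of the table higher in cold, CCGGAAG was present in 5 (31.3%) and CACGTG in 2 (12.5%). Of the 29 not called, they were present in 11 (37.9%) and 9 (31.0%), and of the 4 lower in 0 and 2. These groups are small and their differences were not tested. GGGCGG was in 77.6% of the factor genes and 68.3% of tested genes, and CCAAT in 30.6% and 42.4%. AAGATGGC (YY1) was in 12.2% and 5.20%, the longer ETS form ACCGGAAGT, which contains CCGGAAG, in 8.16% and 2.51%, and TGATGNAA (CARE core) in 4.08% and 2.71%. The full CRE TGACGTCA, which contains TGACG, was in 2.04% and 3.49%, the palindromic NRF1 element in 2.04% and 2.36%, and TTACGTAA in 0 and 0.176%. Many genes share these letters, and a match is no evidence of binding.

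In cold tissue 19 factor genes were higher, 5 were lower and 39 were not called, among the 63 with enough reads to test. The call was edgeR's quasi-likelihood test with an adjusted p under 0.05 over all 13876 tested genes. Across all those genes 31.6% were called, 16.2% higher and 15.4% lower, beside 30.2% of the factor genes higher and 7.94% lower. Since the family was proposed with this contrast known, nothing is read from that difference. The median log2 fold change was 0.10 for the factor genes and -0.01 for all tested genes, and 45 of 63 factor genes had a positive value. Groups did not overlap in CPM for 14 factor genes (22.2%), beside 16.3% of all tested genes. The changes were small: 1.59% of the factor genes and 6.17% of all tested genes differed by at least 2-fold. Among the factor genes this was Eef1a2 alone, which was not called, so no called factor gene reached 2-fold. Eif4e1b and Eef1akmt3 had too few reads to be tested. In whole tissue, fewer cells of a type and less RNA per cell cannot be told apart.

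Markers of cell types moved beside these counts. Of the 11 brown adipocyte genes, 4 were higher and 1 lower, beside 31.6% of all tested genes called. Ppargc1a ran from 224 to 411 CPM in cold and 44.4 to 63.5 CPM in ctrl libraries. Adipoq went the other way, from 298 to 379 CPM in cold and 425 to 635 CPM in ctrl libraries. The white adipocyte list summed to 440 to 633 CPM in cold and 107 to 269 CPM in ctrl libraries, with 1 of 5 tested genes higher (Npr3, at 340 to 579 CPM in cold and 63.3 to 132 CPM in ctrl libraries) and Hoxc9 and Tcf21 under 0.5 CPM in every library. The fibroblast and preadipocyte list summed to 173 to 256 CPM in cold and 221 to 380 CPM in ctrl libraries, with 3 of 6 genes lower. The endothelial list (702 to 880 CPM in cold, 655 to 890 CPM in ctrl) had 1 gene higher and 1 lower, and the macrophage list (41.9 to 60.0 CPM in cold, 32.5 to 57.7 CPM in ctrl) had 1 higher. Lymphocyte markers summed to at most 5.43 CPM and nerve markers to at most 32.6 CPM in any library, with Th, Dbh and Snap25 under 0.5 CPM. Their part in the results was not tested.

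**Figure D1:**
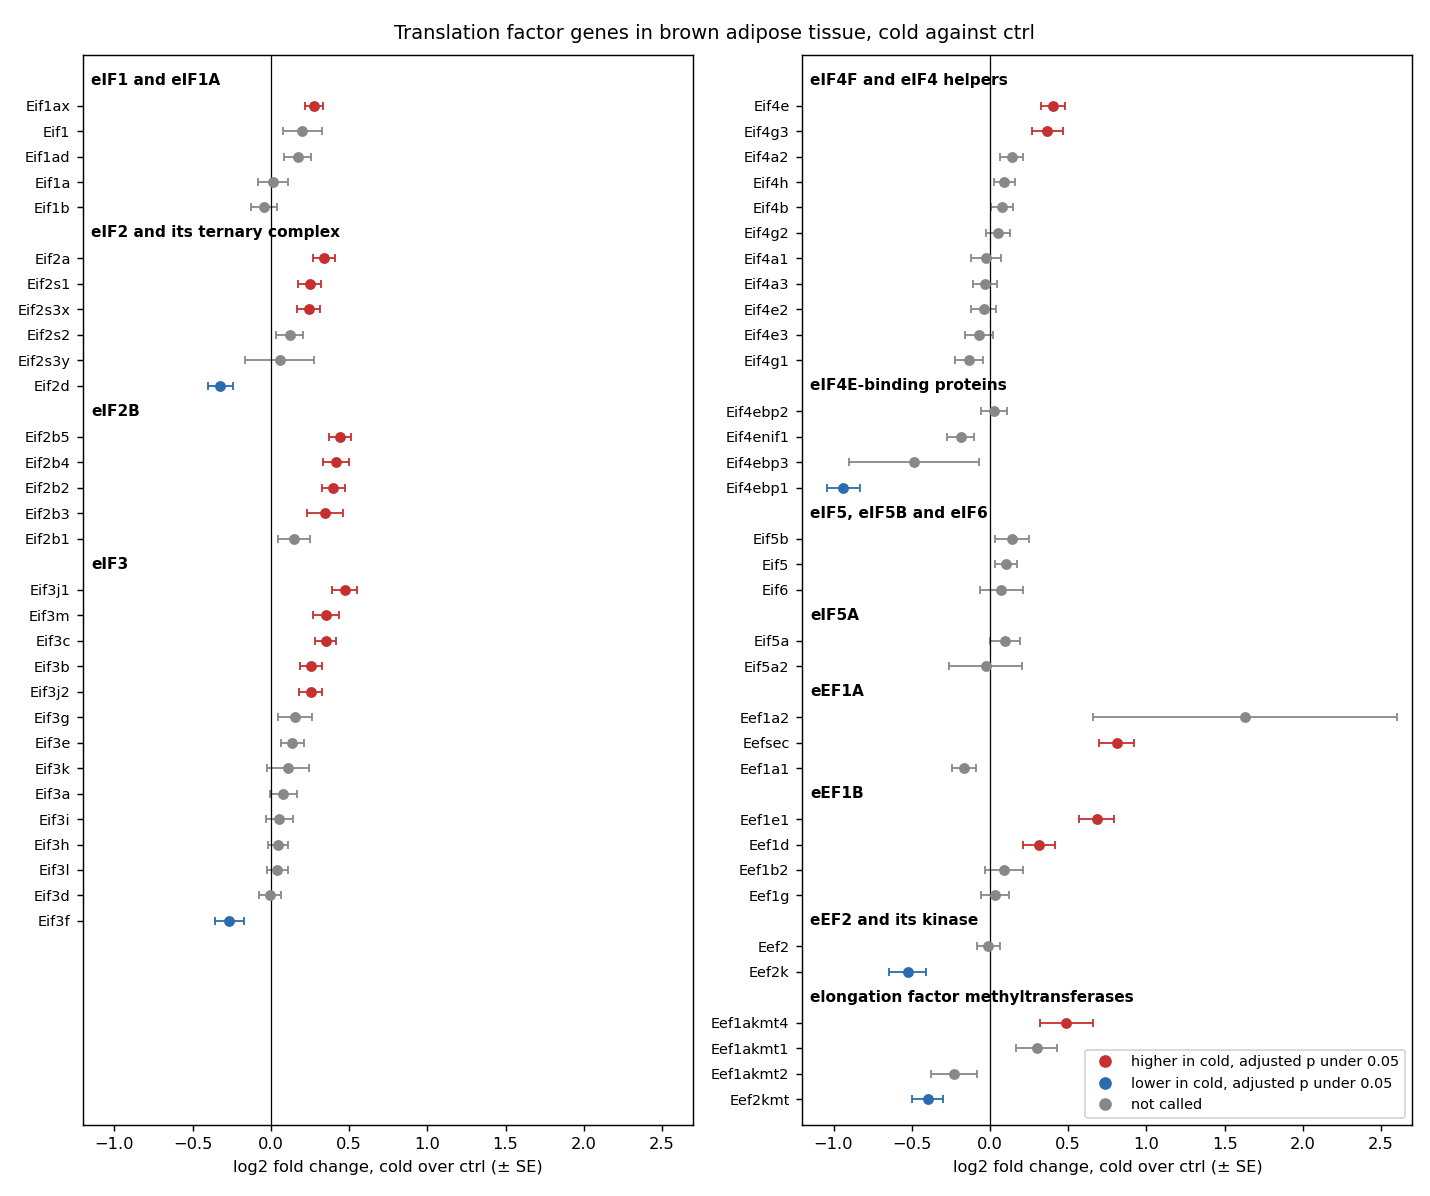
Log2 fold change of cold over ctrl (x axis, point ± SE) for the 63 tested genes, grouped by role, with red for higher, blue for lower and grey for not called at an adjusted p under 0.05. In all, 4 of the 5 eIF2B points are red near 0.4, and Eif4ebp1 is the lowest blue point at -0.94.

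Among the genes of cap binding, Eif4e was higher and Eif4ebp1 lower in cold, the markers named with the family. They were counted in 2 groups. The eIF4F group also holds helpers and paralogs such as Eif4b, Eif4h, Eif4g2 and Eif4e2, and 2 of its 11 tested genes were higher and 0 lower. Of 4 binding-protein genes 1 was lower, beside 16.2% of all genes higher and 15.4% lower. Eif4ebp1 (chr8:27260329-27276674), which encodes the inhibitor 4E-BP1, had a lowest, median and highest level of 66.4, 75.3 and 91.4 CPM in cold animals, against 123, 153 and 167 CPM in ctrl animals. The groups did not overlap. The fold change was 0.522 (log2 -0.94 ± 0.11 SE, adjusted p = 6.55e-06). Eif4e (chr3:138526179-138559696), which encodes the cap-binding protein, had 55.4, 61.1 and 66.2 CPM in cold animals, against 41.1, 45.04 and 54.1 CPM in ctrl animals. These groups did not overlap either, with the gap at its narrowest between cold 11 and ctrl 14. The fold change was 1.32 (log2 0.40 ± 0.08, adjusted p = 0.000746).

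Per transcript length, Eif4ebp1 stood at 46.4 ± 5.70 RPKM in cold tissue and 93.6 ± 10.9 in ctrl tissue (SD, n = 6 each). RPKM are reads per kb of transcript, scaled to library size as CPM are. Eif4e stood at 39.9 ± 3.38 in cold and 33.8 ± 2.56 in ctrl tissue. Unlike in CPM, these Eif4e groups overlapped, with 36.1 in cold 16 and 37.1 in ctrl 9. That level depends on how reads divide between transcripts of unequal length, and edgeR's usage test on its 5 transcripts gave an adjusted p = 0.838. The level of Eif4ebp1 per unit of Eif4e was 0.945 to 1.29 in cold animals (mean 1.17 ± 0.147) and 2.23 to 3.27 in ctrl animals (mean 2.78 ± 0.378). Every cold animal lay below every ctrl animal. This ratio joins values already used above and was not tested. Eif4ebp1 ranked 23rd by level among the factor genes in cold tissue and 9th in ctrl tissue. Eif4ebp2, the second 4E-binding protein, had 206, 258 and 287 CPM in cold animals against 229, 244 and 260 CPM in ctrl animals, and was not called (log2 0.03 ± 0.08, adjusted p = 0.846). Summing the 3 binding proteins gave 2.31 ± 0.282 units per unit of Eif4e in cold tissue and 4.12 ± 0.433 in ctrl tissue. The highest cold value was 2.72 in cold 16 and the lowest ctrl value 3.58 in ctrl 14, so the groups did not overlap.

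**Figure D2:**
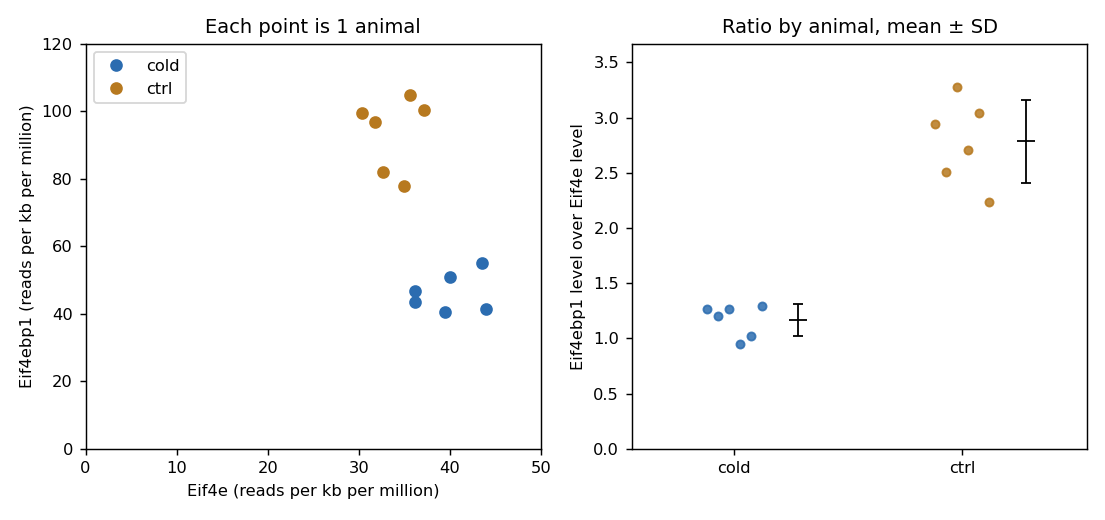
Left, Eif4ebp1 against Eif4e in each animal, both in RPKM. Right, their ratio by animal with mean ± SD: 0.945 to 1.29 in the 6 cold animals and 2.23 to 3.27 in the 6 ctrl animals.

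The third binding protein gene, Eif4ebp3, was scarce, at 0.413, 0.889 and 2.36 CPM in cold animals against 0.742, 1.43 and 2.67 CPM in ctrl animals. It was not called with all animals (log2 -0.49 ± 0.41, adjusted p = 0.407), but was called without cold 4 (log2 -0.97, adjusted p = 0.0474), the library that held its highest cold value. Over 23 alternatives its adjusted p ran from 0.0243 to 0.762. Eif4enif1, the 4E transporter that moves eIF4E into the nucleus, averaged 23.4 ± 2.93 CPM in cold and 26.6 ± 1.32 CPM in ctrl tissue and was not called. Both were named after their values were seen.

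Among the other genes of the eIF4F group, helpers included, only Eif4g3 was called. Eif4g3, a scaffold paralog of eIF4G1, had 65.8, 89.3 and 105 CPM in cold animals, against 60.7, 68.1 and 78.4 CPM in ctrl animals. Cold 4 was the lowest cold library and fell within the ctrl range, and the other 5 cold libraries lay above it. The fold change was 1.29 (log2 0.37 ± 0.10, adjusted p = 0.00955). Eif4g1, the main scaffold, averaged 552 ± 58.9 CPM in cold and 605 ± 54.3 CPM in ctrl tissue (log2 -0.13 ± 0.09, adjusted p = 0.281). The helicase genes Eif4a1 (log2 -0.03 ± 0.09) and Eif4a2 (log2 0.14 ± 0.08) were not called, with adjusted p = 0.870 and 0.186. The summed level per length of the whole group, helpers and paralogs included, was 818 ± 13.3 RPKM in cold and 816 ± 9.34 in ctrl tissue. Its largest term was Eif4g2, at 164 RPKM in cold and 163 in ctrl tissue, so the sum is not that of the cap-binding complex alone.

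The genes of eIF2B, the exchange factor that recharges eIF2, were higher in cold for 4 of 5 subunits, and only Eif2b1 was not called, beside 16.2% of all tested genes higher. Eif2b5 (chr16:20498817-20509323), the catalytic epsilon subunit, had 54.3, 59.7 and 64.9 CPM in cold animals, against 38.5, 45.6 and 46.7 CPM in ctrl animals. The groups did not overlap. The fold change was 1.36 (log2 0.44 ± 0.07, adjusted p = 0.000156). Eif2b4, the delta subunit, had 50.4, 53.0 and 67.3 CPM in cold animals, against 35.9, 41.6 and 45.2 CPM in ctrl animals. Its fold change was 1.34 (log2 0.42 ± 0.08, adjusted p = 0.00126), without overlap. Eif2b2, the beta subunit, had 20.7, 22.6 and 24.3 CPM in cold animals, against 15.8, 17.2 and 18.4 CPM in ctrl animals. It rose 1.32-fold (log2 0.40 ± 0.07, adjusted p = 0.000610), again without overlap. These 3 calls held under all 23 alternatives. Per transcript length the Eif2b5 groups stayed apart, while those of Eif2b4 and Eif2b2 overlapped. The lowest cold value of Eif2b4 was 31.8 RPKM and its highest ctrl value 32.6. For Eif2b2 these were 17.0 and 19.7 RPKM.

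Eif2b3, the gamma subunit and named after its values were seen, averaged 16.2 ± 2.60 CPM in cold and 12.8 ± 1.503 CPM in ctrl tissue (log2 0.34 ± 0.12, adjusted p = 0.0305). Its call ended in 10 of 23 alternatives, among them leaving out ctrl 6, cold 7, ctrl 10, cold 12, ctrl 14 or cold 15 in turn, where the adjusted p ran from 0.0524 to 0.0698. Eif2b1, the alpha subunit, averaged 29.2 ± 4.21 CPM in cold and 26.4 ± 3.21 CPM in ctrl tissue (log2 0.15 ± 0.10, adjusted p = 0.305). Summed per length, eIF2B stood at 107 ± 10.9 RPKM in cold and 84.6 ± 6.88 in ctrl tissue.

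The eIF2 group had 3 genes higher, 1 lower and 2 not called, beside 31.6% of all tested genes called in either direction. It also holds Eif2a and Eif2d, which are not eIF2 subunits. Of the subunit genes, Eif2s1 and Eif2s3x were higher, and Eif2s2 and Eif2s3y were not called. Eif2a, an alternative initiator-tRNA carrier, had 35.5, 37.2 and 42.2 CPM in cold animals, against 27.3, 29.5 and 32.5 CPM in ctrl animals. The groups did not overlap, and the log2 fold change was 0.34 ± 0.07 (adjusted p = 0.00140). Eif2s1, the alpha subunit that stress kinases phosphorylate, had 31.1, 34.96 and 36.8 CPM in cold animals, against 26.2, 29.3 and 31.5 CPM in ctrl animals. Only the lowest cold and highest ctrl values crossed (log2 0.25 ± 0.07, adjusted p = 0.0148). Eif2s3x, the X-linked gamma subunit, averaged 108 ± 8.77 CPM in cold and 91.0 ± 6.68 CPM in ctrl tissue (log2 0.24 ± 0.07, adjusted p = 0.0189). Both calls ended without ctrl 2 and cold 15 together, at adjusted p = 0.0538 for Eif2s1 and 0.0925 for Eif2s3x.

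Eif2d, a non-canonical initiator-tRNA carrier, had 15.8, 16.7 and 19.0 CPM in cold animals, against 19.2, 20.8 and 24.8 CPM in ctrl animals. It fell without overlap (log2 -0.32 ± 0.08, adjusted p = 0.00530), and the call ended with library totals as scaling (log2 -0.24, adjusted p = 0.0674). Eif2s2, the beta subunit, was not called (log2 0.12 ± 0.09). Neither was Eif2s3y, the Y-linked gamma subunit, whose cold values ran from 28.7 CPM to 78.0 CPM against 33.03 to 52.7 CPM in ctrl animals. Both were named after their values were seen.

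**Figure D3:**
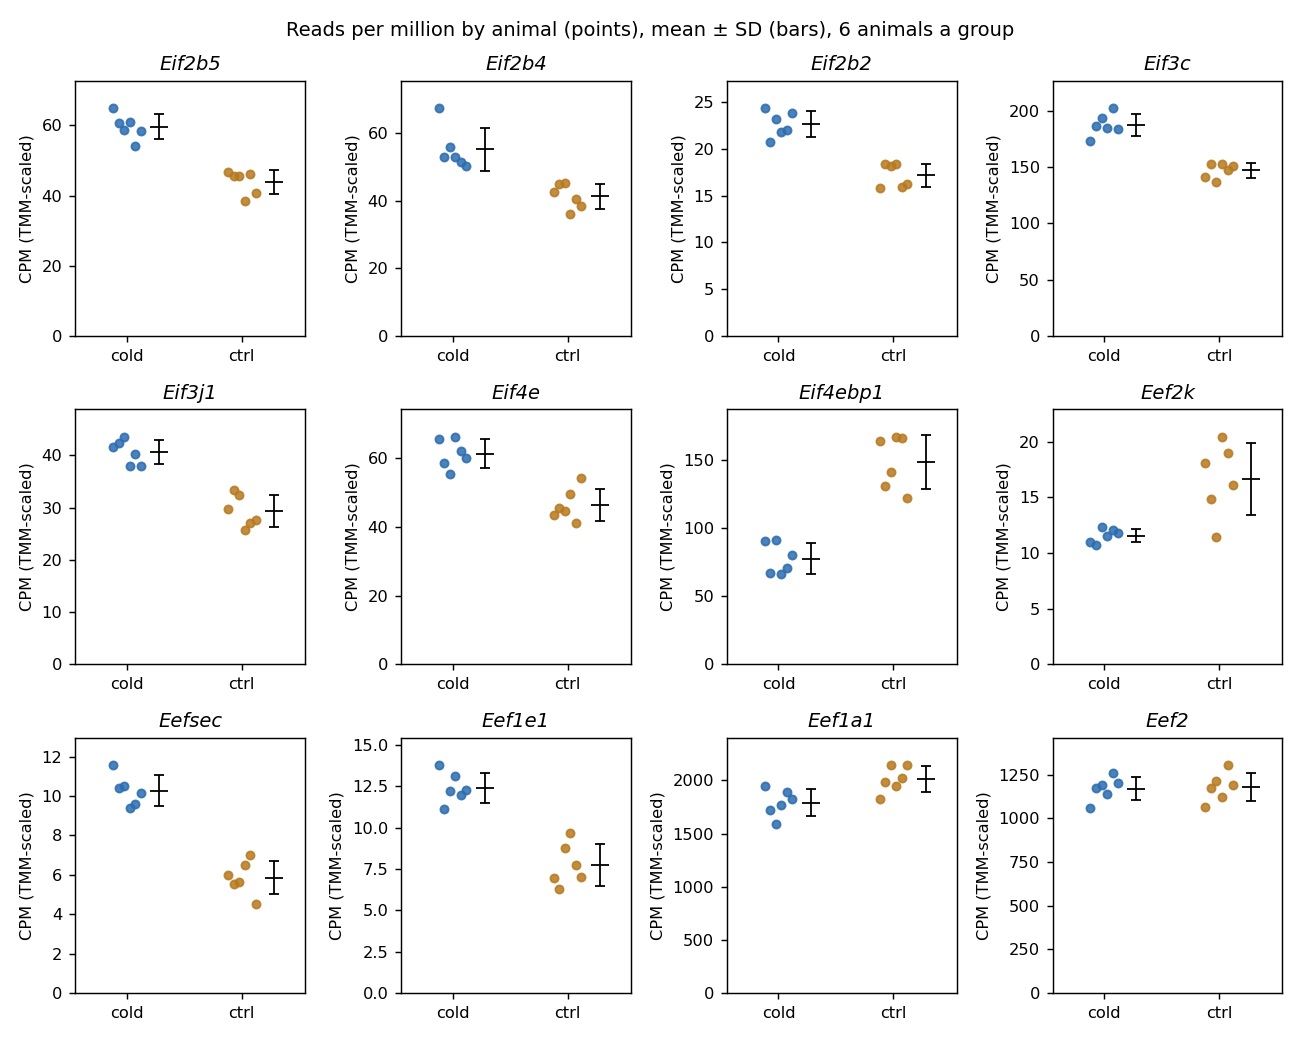
CPM by animal (points) with mean ± SD (bars) for 12 genes, each axis starting at 0, cold on the left and ctrl on the right of each panel. Eif2b5, Eif2b4, Eif2b2, Eif3c, Eif3j1, Eif4e, Eif4ebp1, Eefsec and Eef1e1 show no overlap, while Eef2k, Eef1a1 and Eef2 overlap.

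eIF3, the large scaffold that keeps the small subunit open for the ternary complex, had 5 of 14 genes higher, 1 lower and 8 not called, beside the same 31.6% of all tested genes. Eif3j1, a loosely attached subunit, had 38.03, 40.97 and 43.6 CPM in cold animals, against 25.7, 28.7 and 33.3 CPM in ctrl animals. It rose without overlap (log2 0.47 ± 0.08, adjusted p = 0.000252). Eif3c, a core subunit, had 173, 186 and 202 CPM in cold animals, against 137, 149 and 153 CPM in ctrl animals, also without overlap (log2 0.35 ± 0.07, adjusted p = 0.000604). Eif3m, a peripheral subunit, had 35.3, 39.6 and 45.3 CPM in cold animals, against 29.3, 30.8 and 36.7 CPM in ctrl animals. Ctrl 6 alone reached into the cold range (log2 0.35 ± 0.08, adjusted p = 0.00343). Eif3b and Eif3j2 were the other 2 higher genes, with log2 fold changes of 0.26 and 0.25, and the call of Eif3j2 ended without ctrl 2 and cold 15 (adjusted p = 0.0537). Eif3j2 is a near-identical copy of Eif3j1, so the estimator may divide reads between them and their separate values are uncertain.

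Eif3f, a subunit with a deubiquitinase-like domain, had 41.96, 49.7 and 58.7 CPM in cold animals, against 49.7, 61.0 and 66.0 CPM in ctrl animals. The groups overlapped (log2 -0.27 ± 0.09, adjusted p = 0.0375). Its call ended in 11 of 23 alternatives, with an adjusted p of 0.242 under library totals. Leaving out ctrl 2, ctrl 5, ctrl 6, cold 7, ctrl 9, ctrl 10, cold 12 or cold 16 in turn gave 0.0570 to 0.0933. The summed level of eIF3 per length was 633 ± 53.4 RPKM in cold and 583 ± 32.9 in ctrl tissue.

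Of 5 genes grouped with the start-codon scanning factors eIF1 and eIF1A, Eif1ad included, only Eif1ax was called, beside 31.6% of all tested genes. Eif1ax, the X-linked eIF1A gene, had 66.4, 69.9 and 74.0 CPM in cold animals, against 55.7, 58.1 and 59.9 CPM in ctrl animals. It rose without overlap (log2 0.27 ± 0.06, adjusted p = 0.00163). Its per-length level was 25.6 RPKM in cold and 27.3 in ctrl tissue, the opposite order. That level depends on how reads divide between transcripts of unequal length, and edgeR's usage test on its 2 transcripts gave an adjusted p = 0.147. Eif1, the fidelity factor, had 356, 391 and 467 CPM in cold animals, against 266, 329 and 477 CPM in ctrl animals, and was not called (log2 0.20 ± 0.12, adjusted p = 0.248). Ctrl 6 held the 477 CPM value, and without it Eif1 was called (log2 0.32, adjusted p = 0.0308). Eif5, Eif5b and Eif6 were not called, with log2 fold changes of 0.07 to 0.14. Eif5a, the hypusine-bearing factor, averaged 330 ± 47.1 CPM in cold and 309 ± 22.6 CPM in ctrl tissue (log2 0.10 ± 0.09, adjusted p = 0.473).

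Among elongation factors the most abundant genes, Eef1a1 and Eef2, were not called, while Eefsec, Eef1e1 and Eef1d were higher and Eef2k was lower. In the eEF1A group, Eefsec included, 1 of 3 genes was higher, and in the eEF1B group, Eef1e1 included, 2 of 4. Of eEF2 and its kinase, 1 of 2 genes was lower. Across all tested genes 16.2% were higher and 15.4% lower. Eef1a1, the main tRNA carrier, had 1589, 1797 and 1949 CPM in cold animals, against 1824, 2000 and 2142 CPM in ctrl animals. The groups overlapped (log2 -0.17 ± 0.08, adjusted p = 0.107). DESeq2 called it at adjusted p = 0.0499, as did leaving out cold 4 at 0.0428, and the range over 23 alternatives was 0.0428 to 0.561. Eef2, the translocase, had 1059, 1180 and 1257 CPM in cold animals, against 1066, 1181 and 1303 CPM in ctrl animals (log2 -0.01 ± 0.07, adjusted p = 0.928). Eefsec (chr6:88257334-88446539), the factor that brings selenocysteine tRNA to recoded UGA codons, had 9.39, 10.3 and 11.6 CPM in cold animals, against 4.51, 5.82 and 6.99 CPM in ctrl animals. It rose 1.75-fold without overlap (log2 0.81 ± 0.11, adjusted p = 4.03e-05).

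Eef1e1 (AIMP3), a scaffold of the multi-tRNA synthetase complex, had 11.1, 12.2 and 13.8 CPM in cold animals, against 6.27, 7.37 and 9.64 CPM in ctrl animals. It rose 1.61-fold without overlap in CPM (log2 0.68 ± 0.11, adjusted p = 0.000187). Per transcript length the Eef1e1 groups overlapped, at 7.95 ± 1.72 RPKM in cold and 6.02 ± 1.57 in ctrl tissue. The usage test of edgeR on its 2 transcripts gave an adjusted p = 0.598. Eef1d, the delta subunit of eEF1B, had 68.7, 71.1 and 103 CPM in cold animals, against 54.4, 63.9 and 69.9 CPM in ctrl animals, with cold 4 highest (log2 0.31 ± 0.10, adjusted p = 0.0281). Its call ended without ctrl 9 (adjusted p = 0.0647), ctrl 14 (0.0614), cold 15 (0.0518), or ctrl 2 and cold 15 together (0.0771). Eef1b2 and Eef1g, the other eEF1B subunits, were not called, with log2 fold changes of 0.09 and 0.03.

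Eef2k (chr7:120842831-120907450), the kinase that stops eEF2, had 10.8, 11.6 and 12.3 CPM in cold animals, against 11.4, 17.1 and 20.4 CPM in ctrl animals. Ctrl 6 alone fell inside the cold range. The fold change was 0.695 (log2 -0.52 ± 0.12, adjusted p = 0.00283). Eef2kmt, which methylates eEF2, had 17.4, 19.6 and 24.6 CPM in cold animals, against 23.7, 25.3 and 30.5 CPM in ctrl animals, with cold 4 inside the ctrl range (log2 -0.40 ± 0.10, adjusted p = 0.00465). Eef1akmt4, an eEF1A methyltransferase, averaged 4.57 ± 0.561 CPM in cold and 3.23 ± 0.862 CPM in ctrl tissue (log2 0.49 ± 0.17, adjusted p = 0.0369). Its call ended in 11 of 23 alternatives: leaving out ctrl 2, cold 4, cold 7, ctrl 9, ctrl 10, ctrl 14, cold 15 or cold 16 in turn gave adjusted p of 0.0509 to 0.0758.

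Eef1a2, the eEF1A paralog of muscle and nerve, had 1.81, 8.57 and 71.0 CPM in cold animals, against 0.555, 7.17 and 14.4 CPM in ctrl animals. It had the largest coefficient of variation in both groups, 132% in cold and 81.5% in ctrl, and was not called (log2 1.63 ± 0.97, adjusted p = 0.242). Cold 15 held the 71.0 CPM value: without it the log2 fold change was 0.57 (adjusted p = 0.675), and without ctrl 2 and cold 15 it was 0.35 (adjusted p = 0.803). Skeletal muscle RNA moved with it: cold 15 and cold 11 had the highest levels of both, and ctrl 2 and ctrl 6 the lowest. The summed level of 13 muscle markers was 193 to 5716 CPM in cold and 139 to 1810 CPM in ctrl libraries, with 0 of 13 called. With the mean log2 level of those 13 genes as a covariate, the log2 fold change of Eef1a2 was 0.37 (adjusted p = 0.0403), and over 23 alternatives the adjusted p ran from 0.0403 to 0.803.

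**Figure D4:**
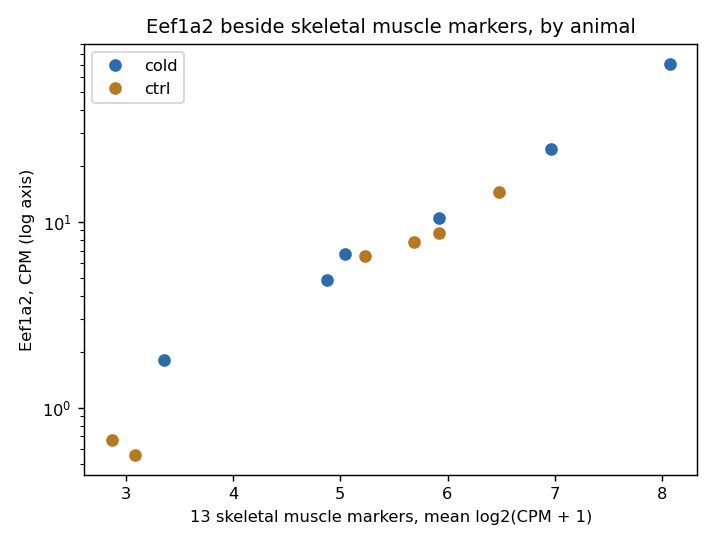
Eef1a2 (CPM, log axis) against the mean of log2(CPM + 1) over 13 skeletal muscle genes, 1 point per animal, blue for cold and brown for ctrl. Cold 15 lies at the upper right with 71.0 CPM, and ctrl 2 and ctrl 6 lie at the lower left under 1 CPM.

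Ordered by level per length, Eef1a1 came first at 1013 ± 73.2 RPKM in cold and 1143 ± 69.8 in ctrl tissue, or 23.3% and 26.3% of the summed level of all factor genes. Eef2 followed at 383 ± 21.03 in cold and 387 ± 26.6 in ctrl. Eif1 stood at 304 ± 32.4 in cold and 269 ± 61.7 in ctrl, and Eif5a at 248 ± 33.6 and 232 ± 16.1, so the SDs of this pair overlapped in both groups. In all, 8 genes averaged at least 100 units, 43 lay between 10 and 100, 11 between 1 and 10 and 3 under 1. The summed level was 4342 ± 250 units in cold and 4342 ± 188 in ctrl tissue. As a share of all reads the family took 0.954 ± 0.0436% in cold and 0.888 ± 0.0719% in ctrl libraries, overlapping between groups. Over animals of a group the median coefficient of variation was 10.7% in cold and 8.98% in ctrl for factor genes, beside 15.0% and 14.0% for all tested genes. Cold 4, the deepest library, held the highest cold value for 41 of 63 factor genes, and ctrl 6 the highest ctrl value for 26. Leaving out cold 4 gave 18 higher and 7 lower calls, and leaving out cold 4 and cold 7, a choice made after seeing the data, gave 17 and 6.

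**Figure D5:**
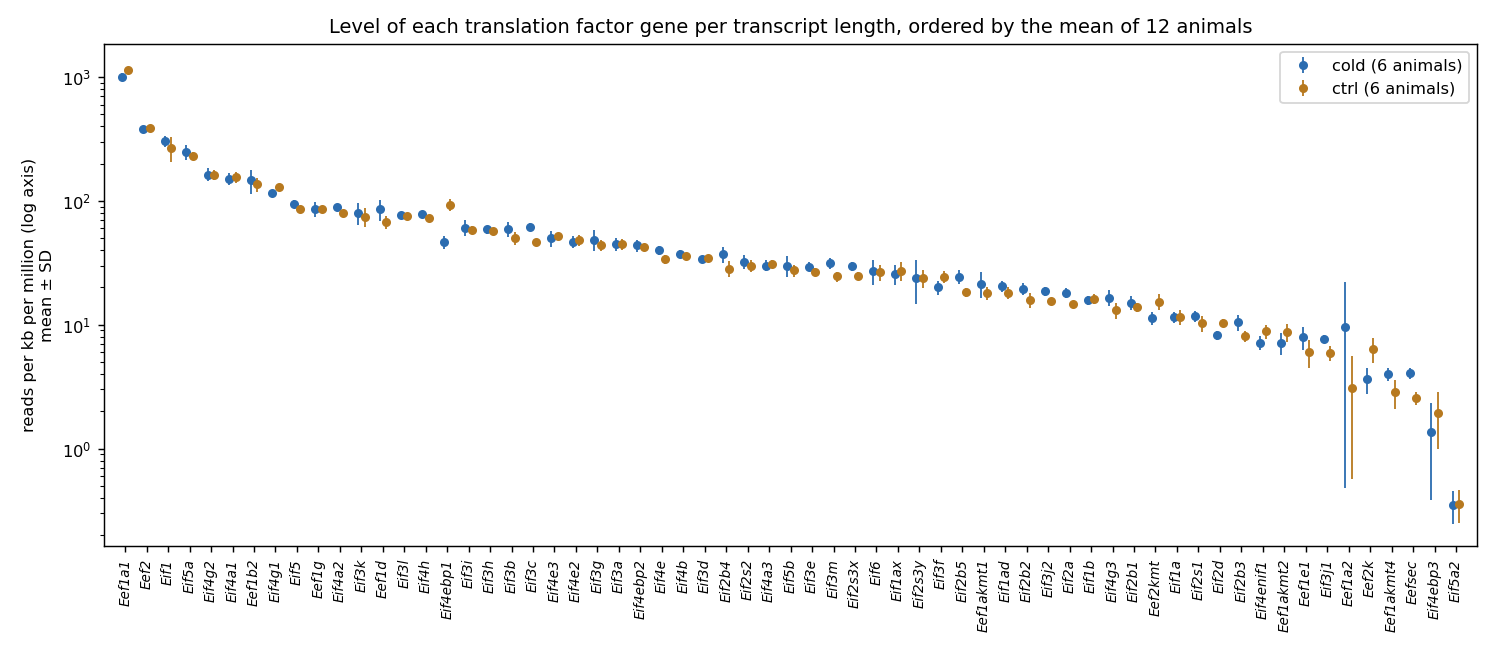
Mean ± SD level of each factor gene in RPKM (log axis), ordered by the mean of 12 animals, with cold in blue on the left of each pair and ctrl in brown. Eef1a1 leads at 1013 units in cold, and Eif4ebp1 stands at 46.4 in cold and 93.6 in ctrl.

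Regulators of the factors were listed with results of these data already known. Of 29 tested genes of mTORC1 and its upstream regulators, 5 were higher and 4 lower (31.0% called, median log2 fold change 0.06, beside 31.6% and -0.01 for all genes). Rptor (log2 0.42 ± 0.09), Mtor (0.50 ± 0.14) and Lamtor3 (0.27 ± 0.07), which encode the complex's core and a lysosomal anchor, were higher, with adjusted p of 0.00301, 0.0110 and 0.0111. Rragb (-0.81 ± 0.19), Nprl2 (-0.34 ± 0.09) and Sesn3 (-0.56 ± 0.18), an amino-acid-signalling GTPase and a pair of brakes on the pathway, were lower, with adjusted p of 0.00406, 0.00596 and 0.0286. The other called genes, named after their values were seen, were Rragc (0.30 ± 0.08) and Rragd (1.35 ± 0.38), GTPases of the same family as Rragb but higher, and Lamtor2 (-0.36 ± 0.12), of the same anchor as Lamtor3 but lower, with adjusted p of 0.0120, 0.0173 and 0.0340. Rragb was scarce, at 1.25 ± 0.163 CPM in cold and 2.20 ± 0.441 CPM in ctrl tissue. Rragd was low and varied widely in cold, at 7.39 ± 4.59 CPM against 2.89 ± 0.987 CPM in ctrl tissue. Of 27 kinases, phosphatases and repressors, 4 were higher and 7 lower (40.7%, median -0.07). Mknk2, the kinase that phosphorylates eIF4E, averaged 344 ± 15.1 CPM in cold and 630 ± 41.7 CPM in ctrl tissue (log2 -0.87 ± 0.07, adjusted p = 1.90e-07). Gigyf1 (-0.51 ± 0.08), a 4EHP partner, and Camk2g (-0.43 ± 0.09) were also lower, with adjusted p of 9.76e-05 and 0.000957. Pdcd4 (-0.85 ± 0.16), an eIF4A inhibitor, was lower at adjusted p = 0.00102 and was named after its values were seen. Csnk2a1 (0.47 ± 0.07), Gsk3a (0.41 ± 0.07), both of which phosphorylate eIF2Bε, and the eIF2α kinase gene Eif2ak3 (0.50 ± 0.10) were higher, with adjusted p of 9.28e-05, 0.000259 and 0.00118. Also called, and named after their values were seen, were Eif2ak2 (-0.36 ± 0.09), another eIF2α kinase gene, Rps6kb1 (-0.39 ± 0.09) and Paip1 (-0.33 ± 0.08), all lower, and Paip2b (0.31 ± 0.09), which was higher. Their adjusted p were 0.00710, 0.00331, 0.00615 and 0.0140.

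Of 20 genes of poly(A) binding, termination and recycling, 4 were higher and 2 lower (30% called, median 0.06, beside 31.6% and -0.01 for all genes). Abcf3 (log2 0.32 ± 0.08), Etf1 (0.29 ± 0.08), the stop-codon release factor, and Abcf2 (0.20 ± 0.06) were higher, with adjusted p of 0.00490, 0.0136 and 0.0223. Abce1 (0.23 ± 0.07), a ribosome recycling factor named after its values were seen, was higher at adjusted p = 0.0236. Pabpc1, the main cytoplasmic poly(A)-binding protein, averaged 271 ± 15.9 CPM in cold and 387 ± 35.5 CPM in ctrl tissue (-0.51 ± 0.08, adjusted p = 9.74e-05), and Abtb1 (-0.68 ± 0.11) was lower at adjusted p = 0.000227. Of 79 ribosomal protein genes, 1 was higher and 2 lower (3.80% called, median -0.11, beside the same 31.6% of all genes). Their summed level varied widely between animals, at 11917 ± 2736 CPM in cold and 12771 ± 1664 CPM in ctrl tissue. Rpl5 (0.81 ± 0.17) was higher, and Rps24 (-0.45 ± 0.10) and Rps19 (-0.57 ± 0.16) were lower, with adjusted p of 0.00138, 0.00183 and 0.0146. Ribosomal protein genes have many pseudogene copies, so their values are uncertain.

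Transcript usage asks whether the share of a gene's reads on each transcript shifts. Of 45 factor genes with at least 2 testable transcripts, edgeR's diffSpliceDGE test called 1, beside 1.23% of all 7233 tested genes. That gene was Eef1d, tested over 10 transcripts (edgeR adjusted p = 0.0109). Transcript Eef1d-201 took 33.9 ± 3.84% of its reads in cold and 28.7 ± 4.00% in ctrl tissue, while Eef1d-207 took 35.8 ± 4.34% and 40.9 ± 3.53% in the same order, and both overlapped between groups. Eef1d-217, a minor transcript, took 3.69 ± 2.15% in cold and 0.263 ± 0.643% in ctrl tissue, and was at 0 in 5 of 6 ctrl animals. In a trial on simulated counts with known changes 30.1% of such calls were false. The call was absent when any 1 of 9 of the 12 animals was left out, and 3 factor genes were called without cold 4.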

How the data were processed

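Poly(A) RNA was sequenced from 12 animals as paired 50 nt reads of strand-specific libraries, as the labels' protocols state. According to the submitters' processing notes, bcl2fastq, cutadapt and Salmon were run, with GRCm38 as the build. The Salmon index and whether it used strand are not given in the sources used here. Deposited files each hold estimated counts (expected reads per transcript, not normalized) and TPM for 140658 transcripts, per the file headers. Deposited TPM served only as an alternative for levels, since transcripts with an effective length under 50 nt took 55.2% of it in ctrl 2 and 2.36% to 8.41% elsewhere.

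Transcripts were matched by identifier without version to GENCODE M21 (140137 matched; the unmatched held 0.0866% to 0.152% of reads), and their estimated counts were summed per gene and rounded. Genes past filterByExpr (minimum count 10) were scaled by TMM, and edgeR's quasi-likelihood test (robust, two-sided) compared cold with ctrl, with p adjusted by Benjamini-Hochberg over 13876 genes and called under 0.05. CPM are TMM-scaled. Levels per length (RPKM) are reads per kb of annotated transcript length, summed over a gene's transcripts and scaled like CPM. Usage was tested with diffSpliceDGE. The biological coefficient of variation was 20.6%. Mouse numbers name separate animals, and the labels name no batch. The members, the lists and the tests were chosen with earlier results of these data known. Members named were 12 fixed ones, up to 3 called members by smallest p per direction in each role, called members with an absolute log2 fold change of at least 0.5, the 3 of highest level, the most variable in each group, those called for usage, and 3 genes per direction in each list; others were named after their values were seen. The 11 motifs and the promoters shown were chosen after seeing the data, and promoter windows are RefSeq's.

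On simulated counts the gene test found 44.8%, 77.6% and 92.4% of 1.5-fold, 2-fold and 4-fold changes, with 17 of 160 calls false, and the usage test found 14% and 44% of 2-fold and 4-fold changes, with 25 of 83 calls false. Alternatives were other scalings, filters and tests, a muscle covariate, removal of mitochondrial genes and animals left out, with DESeq2 and limma-voom as other tests. Tools were edgeR 4.0.16, DESeq2 1.42.0 and limma 3.58.1 (R 4.3.3), and pandas 2.3.3, NumPy 2.4.6 and matplotlib 3.10.9 (Python 3.11.15).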

Additional observations from a re-analysis of the deposited data

Results flagged for a closer look

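Single libraries stood apart from their group in 5 of 60 groups of 6 values (30 named factor genes in cold and in ctrl). For independent values chance gives about 1 in 20. That rate is no yardstick here, since genes were named partly for their values or spread and the groups share the same libraries. Eef1a2 was at 71.0 CPM in cold 15, against 1.81 to 24.6 CPM in the other cold animals. Eif2b4 was at 67.3 CPM, Eef2kmt at 24.6 CPM and Eif5a at 419 CPM in cold 4, each the highest of its group. The other 5 cold animals had 50.4 to 55.7 CPM for Eif2b4, 17.4 to 19.9 CPM for Eef2kmt and 285 to 330 CPM for Eif5a. Eif3m was at 36.7 CPM in ctrl 6, against 29.3 to 31.4 CPM in the other ctrl animals.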

How the results depend on the processing

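No paired analysis was possible because no mouse number occurs in both groups. The count of factor genes called lower, 5, was 3 with library totals as scaling, where 23 were higher and where 2895 of all genes were higher and 1409 lower, against 2246 and 2134 under TMM. Leaving out each animal in turn gave 16 to 19 genes higher and 4 to 7 lower. Leaving out ctrl 2 and cold 15 together gave 13 and 4, and leaving out ctrl 6, cold 4 and cold 7, chosen after seeing the data, gave 18 and 6. The usage call was 1, but 0 with transcripts of at least a 0.05 share, and 0 to 3 with an animal left out (0 without ctrl 5, cold 7, ctrl 9, ctrl 10, cold 11, cold 12, ctrl 14, cold 15 or cold 16, and 3 without cold 4). The share of reads on the family was 0.954% in cold and 0.888% in ctrl, 1.14% and 1.11% without mitochondrial genes, and 0.742% and 0.655% per length. Ctrl 2 lowered the ctrl means, at 0.758% of reads and 0.489% per length. The other ctrl libraries held 0.874% to 0.972% of reads and 0.644% to 0.739% per length. Of 690 values of single named genes under alternatives, 656 kept their side of the threshold, 29 lost a call and 5 gained one, and no called value changed sign. Among the 656 were 12 values of uncalled genes that crossed 0. The causes were not tested. The simulated trial found 44.8% of 1.5-fold changes over all tested genes. It held far fewer changed genes than were called in the data, so it does not show what share of changes in factor genes was missed. A gene that was not called is not thereby shown to be unchanged.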
